A study of Mus musculus with 8 samples.

Results

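The Hox cluster genes encode homeodomain transcription factors that lie in 4 clusters of the mouse genome, Hoxa, Hoxb, Hoxc and Hoxd. All gene symbols made of Hox, a cluster letter and a paralog number were taken, which gave 39 of the 24343 genes in the deposited table. The table holds bulk RNA-seq of the whole brain of 3 adult mice of strain C57BL/6NCrl (56–62 days old), all kept under a single condition. Mice 1 and 2 gave 3 libraries each and mouse 3 gave 2. These libraries served as a whole-brain reference of RNA levels in a study that mapped cell types by imaging, so that no treatment, genotype or region is compared. The labels give neither the sex of the mice nor what the library numbers stand for, and libraries of a mouse are not separate animals. Levels are FPKM (fragments per kilobase of transcript, scaled to the number of fragments in the library), summed over a gene's transcripts and averaged first within a mouse and then between mice, with the SD over mice (n = 3).

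Genes with the same number in different clusters are paralogs, copies that arose by duplication of an ancestral cluster, and the number follows the order of the genes along the DNA. In the embryo, genes with low numbers are switched on first and reach farthest forward, into the rhombomeres of the hindbrain, whereas genes with high numbers are confined to the spinal cord, trunk, limbs and tail. The forebrain and midbrain develop without Hox expression, and in the adult brain Hox RNA is known mainly from the medulla, the pons and the precerebellar nuclei. In a bulk sample of a whole brain, fewer cells of a type and less RNA per cell cannot be told apart.

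The shared feature of the members is the homeobox, the stretch that encodes the DNA-binding homeodomain. It was found in the coding sequence of all 39 members, as 180 bases within 1 exon in each, in the GENCODE M21 transcripts on GRCm38. Over the 42 pairs of members with the same paralog number, the median identity of the homeobox was 80.6% of its bases, against 60.6% over the 527 pairs that shared neither number nor cluster. Along the whole GENCODE transcripts matched to the deposited ones, untranslated parts included, the longest identical run of bases in any pair of members was 52, between Hoxa6 and Hoxb4.

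The members' values rest on few fragments. Low FPKM values are whole multiples of what 1 fragment is worth, and this step gave about 11600000 to 16650000 fragments per library, with 93.1% to 95.6% of low genes with a single transcript within 0.1 of a whole number. All 62 such low values of Hox genes came out whole. The depth and fragment length of each library were chosen to make the share over such genes as high as possible. These shares are therefore no independent check of the estimate. The 39 genes together held about 1654 fragments over the 8 libraries. Hoxb5 had about 320 of them, Hoxa5 207, Hoxb3 165, Hoxb8 138, Hoxc4 118 and Hoxa4 96. The libraries held neuronal, oligodendrocyte and astrocyte markers, with mean levels of 1056 FPKM for Snap25, 1925 FPKM for Mbp and 72.6 FPKM for Gfap. These markers do not tell whole brain from a part of it. Mbp had 1288, 1322 and 3166 FPKM and Gfap 52.8, 54.4 and 111 FPKM in mice 1, 2 and 3.

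Hox RNA was present at low levels and was concentrated in the genes with low paralog numbers. Hoxb5 was the highest member at 1.71 ± 0.104 FPKM, followed by Hoxa5 at 1.08 ± 0.0763 FPKM (SD, n = 3 mice), and these 2 were the only members that reached 1 FPKM on average. Hoxa4, Hoxc4, Hoxb8 and Hoxb6 had means of 0.518 to 0.688 FPKM, and 10 further members had 0.151 to 0.463 FPKM. The other 23 members lay below 0.1 FPKM. Of all genes in the table, 53.4% reached 1 FPKM and 67.3% reached 0.1 FPKM, against 5.13% and 41.0% of the Hox genes. Even Hoxb5 was higher than only 50.9% of all genes.

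**Figure D1:**
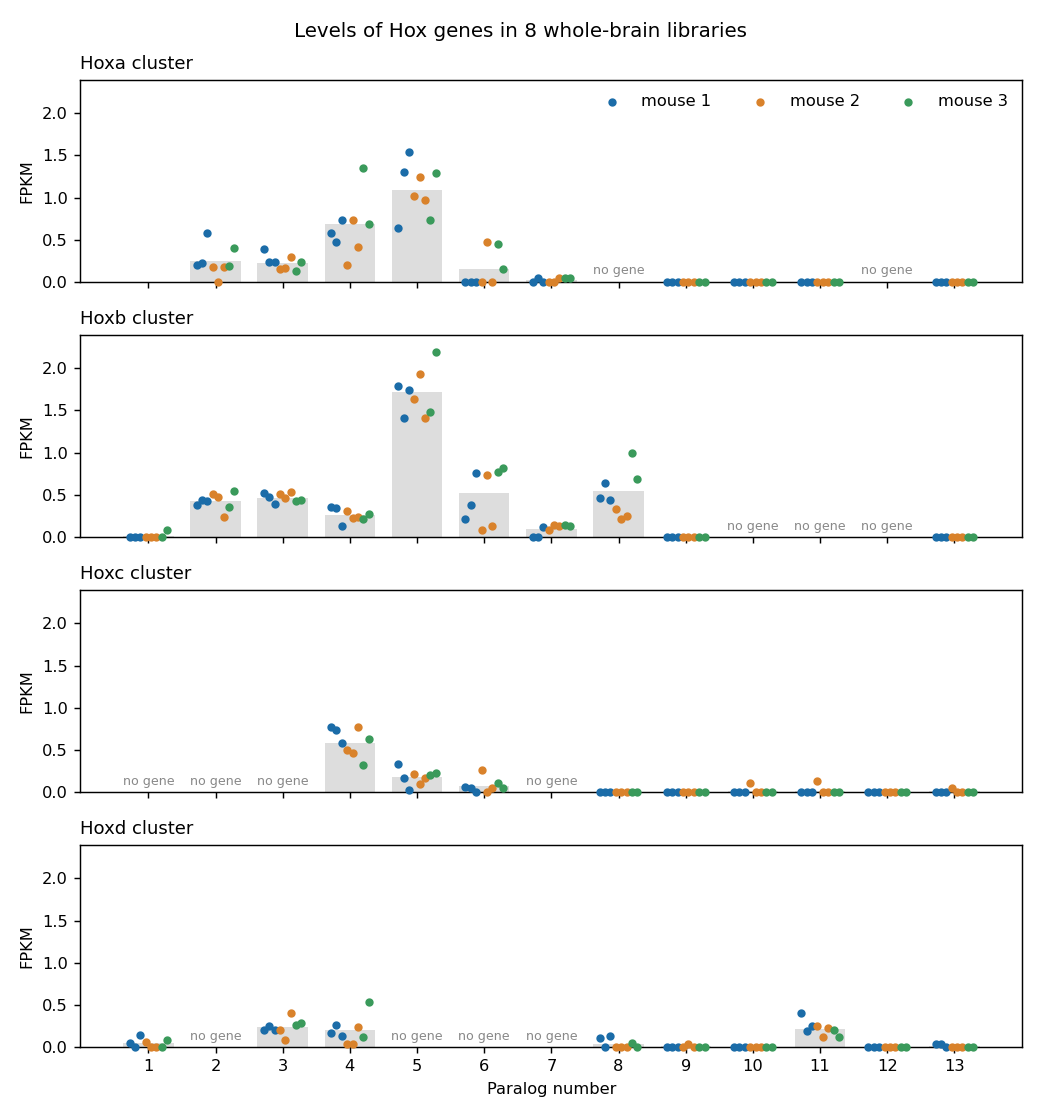
FPKM of the Hox genes by paralog number, in 1 panel per cluster (1 member is not drawn), with a point for each library coloured by mouse and a grey bar for the mean over the 3 mice. Hoxa5, Hoxb5, Hoxc4 and Hoxd3 had the highest means of their clusters. Hoxb5 had 1.41 to 2.19 FPKM in the 8 libraries. Nearly all genes from number 9 on were listed at or close to 0.

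The order of the levels was firm only at a few steps. Hoxb5 was above Hoxa5 in all 8 libraries and in all 3 mice, and the means of the mice for these genes did not overlap. The same was true of Hoxb2 (0.421 ± 0.0226 FPKM) over Hoxb4 (0.254 ± 0.0185 FPKM). At each of the other 13 steps between neighbours in the order, from Hoxa5 down to Hoxa6, the means of the mice overlapped.

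Paralog numbers 1 to 5 held 79.5 ± 4.42% of the summed Hox FPKM, numbers 6 to 8 held 17.3 ± 5.76%, and numbers 9 to 13 held 3.27 ± 1.36%. The share rose from 1.05 ± 0.589% for number 1 to 8.24 ± 0.954% for number 2, 11.6 ± 1.83% for number 3, 21.3 ± 1.47% for number 4 and 37.3 ± 4.04% for number 5. It was 8.97 ± 3.38% for number 6 and 6.84 ± 2.85% for number 8, with number 7 lower than both at 1.47 ± 0.718%. Each share is a sum over the genes with that number, which were 3, 2, 3, 4 and 3 for numbers 1 to 5. For numbers 6, 7 and 8 they were 3, 2 and 3. The shares therefore do not show the order of the levels per gene. All 15 members with numbers 1 to 5 were above 0 in at least 1 library and 11 of them in all 8, whereas 10 of the 16 members with numbers 9 to 13 were listed at 0 in every library.

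**Figure D2:**
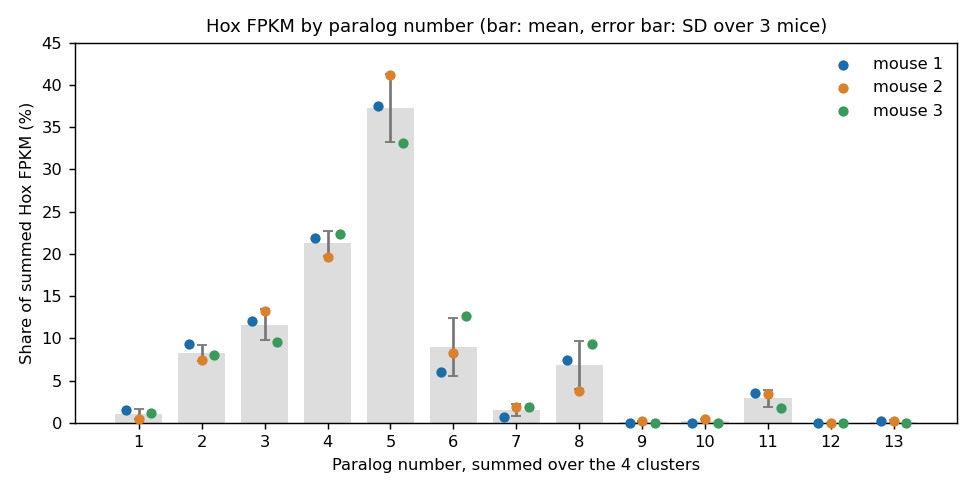
Share of the summed Hox FPKM (%) held by each paralog number over the 4 clusters, with grey bars for the mean, error bars for the SD over 3 mice and a point for each mouse. Numbers 4 and 5 together held 58.6% of the sum, and mouse 3 was lowest at number 5 and highest at numbers 6 and 8.

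Hoxb1 and Hoxd1, which act early in development, were at or close to 0 in the table. Hoxb1, which gives facial motor neurons their identity in the embryo, was listed above 0 only in library 2 of mouse 3, with about 2 fragments. Hoxd1 reached 0.145 FPKM at most and was listed at 0 in 4 of the 8 libraries.

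Both genes of paralog number 2 were detected. Hoxb2, which acts with its paralog Hoxa2 in the rhombomeres, had 0.375, 0.434 and 0.423 FPKM in mouse 1, 0.504, 0.471 and 0.239 FPKM in mouse 2, and 0.352 and 0.541 FPKM in mouse 3. The mice overlapped throughout. Hoxa2, the Hox gene with the most anterior limit of expression in the hindbrain, varied more, with 0.194, 0.218 and 0.575 FPKM in mouse 1, 0.171, 0 and 0.173 FPKM in mouse 2, and 0.182 and 0.401 FPKM in mouse 3. The 3 libraries of mouse 2 were the lowest, although library 1 of mouse 3 lay close above them. Library 3 of mouse 1 had about 15 fragments of Hoxa2 against 4 and 5 in the other libraries of that mouse, and the confidence bounds that the authors deposited still overlapped between all libraries of the same mouse.

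The genes of paralog number 3, which specify the posterior rhombomeres and act in the pharyngeal organs, were each above 0 in all 8 libraries. Hoxb3 had 0.519, 0.467 and 0.384 FPKM in mouse 1, 0.511, 0.461 and 0.530 FPKM in mouse 2, and 0.427 and 0.436 FPKM in mouse 3, for a mean of 0.463 ± 0.0347 FPKM. Hoxd3 and Hoxa3 were lower and varied more. Hoxd3 had a mean of 0.239 ± 0.0311 FPKM and ran from 0.0818 to 0.401 FPKM within mouse 2, where the deposited bounds of libraries 2 and 3 did not overlap. Hoxa3 had a mean of 0.221 ± 0.0549 FPKM and ranged from 0.122 to 0.387 FPKM. The annotated locus of Hoxa3 spans those of Hoxa4, Hoxa5 and Hoxa6, and that of Hoxd3 spans Hoxd4. Whether fragments were divided between these genes was not tested, and whether the estimation used the strand was not stated. All Hoxa genes lie on the minus strand and the members of the other 3 clusters on the plus strand.

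The 4 genes of paralog number 4, which mark the posterior hindbrain, were each above 0 in all 8 libraries. Hoxa4 had 0.578, 0.468 and 0.730 FPKM in mouse 1, 0.204, 0.733 and 0.413 FPKM in mouse 2, and 1.36 and 0.689 FPKM in mouse 3. Library 1 of mouse 3 stood well above the rest, whereas library 2 of the same mouse lay below libraries of mice 1 and 2. Hoxc4 had 0.768, 0.730 and 0.574 FPKM in mouse 1, 0.502, 0.458 and 0.764 FPKM in mouse 2, and 0.322 and 0.628 FPKM in mouse 3, and was the highest gene of its cluster. Hoxb4, which also acts in blood stem cells, ranged from 0.127 to 0.351 FPKM, and Hoxd4, a target of retinoic acid signalling in the hindbrain, from 0.0313 to 0.533 FPKM. For Hoxd4, the deposited bounds of library 2 of mouse 3 did not overlap those of library 1 of the same mouse.

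Paralog number 5 held the highest levels. Hoxb5, at chr11:96303512-96306121, had 1.80, 1.41 and 1.74 FPKM in mouse 1, 1.64, 1.93 and 1.41 FPKM in mouse 2, and 1.48 and 2.19 FPKM in mouse 3, from 31 to 53 fragments per library. Its mice overlapped, and the deposited bounds of all pairs of libraries did so too. Hoxa5, at chr6:52201754-52204587 and known for its part in phrenic motor neurons and in the lung, had 0.636, 1.31 and 1.55 FPKM in mouse 1, 1.02, 1.24 and 0.976 FPKM in mouse 2, and 0.727 and 1.30 FPKM in mouse 3. The spread of Hoxa5 was mainly within mice, since the deposited bounds of libraries 1 and 3 of mouse 1 did not overlap, whereas those of every pair of libraries from different mice overlapped. Hoxc5, which acts with Hoxa5 in phrenic motor neurons, was lower at 0.178 ± 0.0287 FPKM and reached 0.328 FPKM at most. The lowest value of Hoxc5, 0.0237 FPKM in library 3 of mouse 1, was that of about 1 fragment, and its bounds did not overlap those of library 1 of the same mouse.

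Among paralog numbers 6 to 8, Hoxb6 and Hoxb8 stood out. Hoxb8, at chr11:96281905-96285325, is expressed in the caudal brainstem and spinal cord and in a lineage of microglia, and mice without it groom excessively. It had 0.464, 0.640 and 0.442 FPKM in mouse 1, 0.327, 0.211 and 0.250 FPKM in mouse 2, and 0.993 and 0.685 FPKM in mouse 3. The libraries of mouse 2 were all below and those of mouse 3 all above those of mouse 1. Hoxb6 had 0.207, 0.371 and 0.759 FPKM in mouse 1, 0.0811, 0.739 and 0.123 FPKM in mouse 2, and 0.772 and 0.818 FPKM in mouse 3, so that both libraries of mouse 3 were the highest while mice 1 and 2 each spanned a wide range. This range corresponded to 1 to 14 fragments per library, and the deposited bounds of libraries 1 and 2 of mouse 2 did not overlap.

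Of the other members with numbers 6 to 8, Hoxa6 was above 0 in 3 libraries with about 7 fragments, which on a transcript of only 699 bases gave a mean of 0.151 ± 0.148 FPKM. Hoxb7 had about 11 fragments in 6 libraries, Hoxc6, which marks forelimb motor neurons of the spinal cord, about 10 in 6 libraries, Hoxd8 about 6 in 3 libraries and Hoxa7 about 4 in 4 libraries. Hoxc8, which acts in motor neurons of the forelimb level, was listed at 0 in all libraries.

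The genes of paralog numbers 9 to 13, which pattern the posterior trunk, limbs and tail, were listed at or close to 0 apart from Hoxd11. Listed at 0 in all libraries were Hoxa9, Hoxa10, Hoxa11, Hoxa13, Hoxb9, Hoxb13, Hoxc9, Hoxc12, Hoxd10 and Hoxd12. With Hoxc8 these made 11 members (28.2%) at 0, against 20.8% of all genes. For them, 3 fragments over the 8 libraries would have given 0.00936 to 0.0435 FPKM, which covers counting error only. An exact 0 in FPKM can also be a failed estimate, but the deposited status was OK for every Hox transcript value, with 0 of another status. Of 77 ribosomal protein genes 1, Rpl10l, was listed at 0 in all libraries too, which does not tell a failed estimate from absent RNA. Hoxd9 had about 1 fragment in library 2 of mouse 2, and Hoxd13, required for digits, had about 1 in each of libraries 1 and 2 of mouse 1. Hoxc10, Hoxc11 and Hoxc13, the last of which is known from hair follicles, were above 0 only in library 1 of mouse 2, with about 2, 1 and 1 fragments, and the same library had the highest value of Hoxc6, 0.259 FPKM. Without that library the number of members at 0 was 14. The skeletal muscle gene Acta1 was also highest in this library, at 12.6 FPKM against 1.66 to 3.15 FPKM in the others. The other 5 genes of a muscle list were at 0 to 0.517 FPKM there. Among them Myh1 was highest in this library too, at 0.136 against 0 to 0.125 FPKM. Tnnt3, Mylpf, Myh4 and Ckm were highest in other libraries, and Ckm was above 0 only in library 2 of mouse 3. Whether tissue other than brain had a part in these values was not tested.

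Hoxd11 was the exception among the posterior genes, and its level came from a transcript that is annotated as noncoding. In the libraries of mouse 1 the noncoding transcript NR_073086 had 0.406, 0.190 and 0.245 FPKM, in those of mouse 2 it had 0.243, 0.121 and 0.225 FPKM, and in those of mouse 3 it had 0.198 and 0.118 FPKM. The coding transcript NM_008273 had at most 7.51e-06 FPKM in any library. Thus all of about 77 fragments of Hoxd11 were assigned to the noncoding transcript, and without Hoxd11 the share of paralog numbers 9 to 13 was 0.586 ± 0.798% instead of 3.27%. The noncoding transcript starts upstream of the coding one, at chr2:74679558-74687016 against chr2:74682323-74687016, on the plus strand. The 250 bases before each start on GRCm38 are given because the 2 transcripts differ in where they begin, at chr2:74679308-74679557 and chr2:74682073-74682322, 5′ to 3′ on the plus strand, with CpG dinucleotides in capitals.
NR_073086: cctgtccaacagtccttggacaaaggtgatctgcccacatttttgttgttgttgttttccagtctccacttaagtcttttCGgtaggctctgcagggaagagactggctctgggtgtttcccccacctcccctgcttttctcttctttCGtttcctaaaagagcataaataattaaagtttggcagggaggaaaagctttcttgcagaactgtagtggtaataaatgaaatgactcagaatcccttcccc
NM_008273: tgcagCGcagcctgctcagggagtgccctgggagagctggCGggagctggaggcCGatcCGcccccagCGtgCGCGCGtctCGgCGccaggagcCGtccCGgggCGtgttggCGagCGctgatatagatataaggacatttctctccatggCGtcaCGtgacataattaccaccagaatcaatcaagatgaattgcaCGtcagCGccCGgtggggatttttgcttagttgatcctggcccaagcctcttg

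The stretch before the noncoding start held 2 CpG dinucleotides and 44.8% G and C, and that before the coding start held 20 and 60.4%. The RNA was thus assigned to the transcript whose upstream stretch is poor in CpG, which is a description of these 2 stretches and not evidence of where transcription began, since FPKM values per transcript rest on the division of shared fragments.

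**Figure D3:**
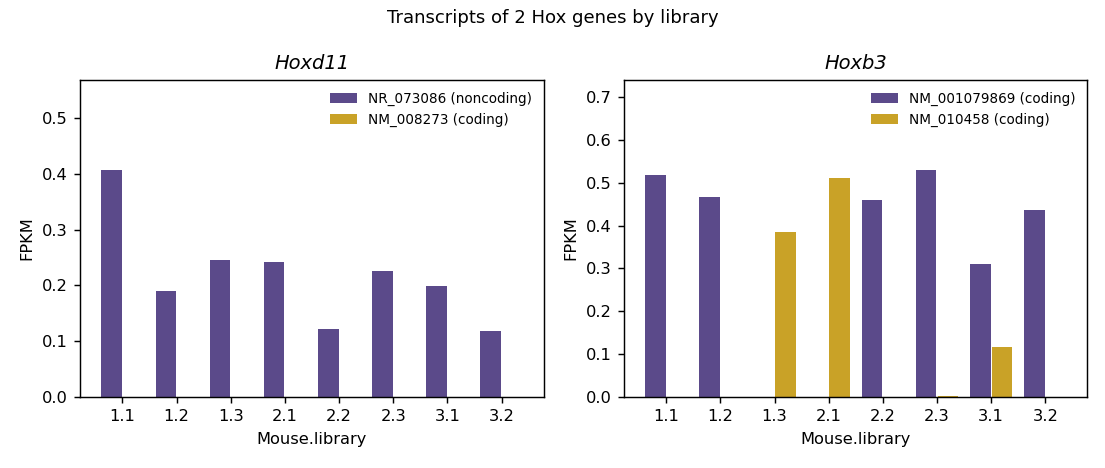
FPKM of the 2 transcripts of Hoxd11 and of Hoxb3 in each library, named by mouse and library number. For Hoxd11 only the noncoding transcript has visible bars, from 0.118 to 0.406 FPKM, and for Hoxb3 the longer transcript is higher in 6 libraries and the shorter in 2.

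The 2 coding transcripts of Hoxb3 were less certain than their sum. NM_001079869, which spans the longer locus, was higher in 6 libraries, and NM_010458 was higher in library 3 of mouse 1 (0.384 against 0.000317 FPKM) and library 1 of mouse 2 (0.510 against 0.000457 FPKM). Libraries of the same mouse thus differed in which transcript carried nearly the whole level, while the sum stayed between 0.384 and 0.530 FPKM. The 34 members with a single transcript are free of this division. Of the remaining 3, Hoxa9 and Hoxa10 were listed at 0 and Hoxd8 was carried by NM_001290731 alone, apart from values of up to 3.57e-06 FPKM.

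By cluster, Hoxb held 49.8 ± 2.03% of the summed FPKM, Hoxa 30.2 ± 1.19%, Hoxc 10.9 ± 2.47% and Hoxd 9.13 ± 1.32%. The Hoxb sum was 3.79, 3.51 and 4.76 FPKM in mice 1, 2 and 3, that of Hoxa was 2.44, 2.02 and 2.87 FPKM, that of Hoxc was 0.897, 0.922 and 0.761 FPKM, and that of Hoxd was 0.838, 0.553 and 0.826 FPKM. The order of Hoxb over Hoxa, and of Hoxa over both Hoxc and Hoxd, held in all 3 mice. Summed over the 39 genes the level was 7.97, 7.01 and 9.22 FPKM, or 8.06 ± 1.11 FPKM. Mouse 3 was highest on this scale but lay between the other mice in TPM, where each library is scaled to the same total (24.6, 21.8 and 23.2 TPM), so that the order of the mice depended on the scaling. The FPKM values of a library summed to 295541 to 345572 in mice 1 and 2 and to 384885 and 409889 in mouse 3.

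**Figure D4:**
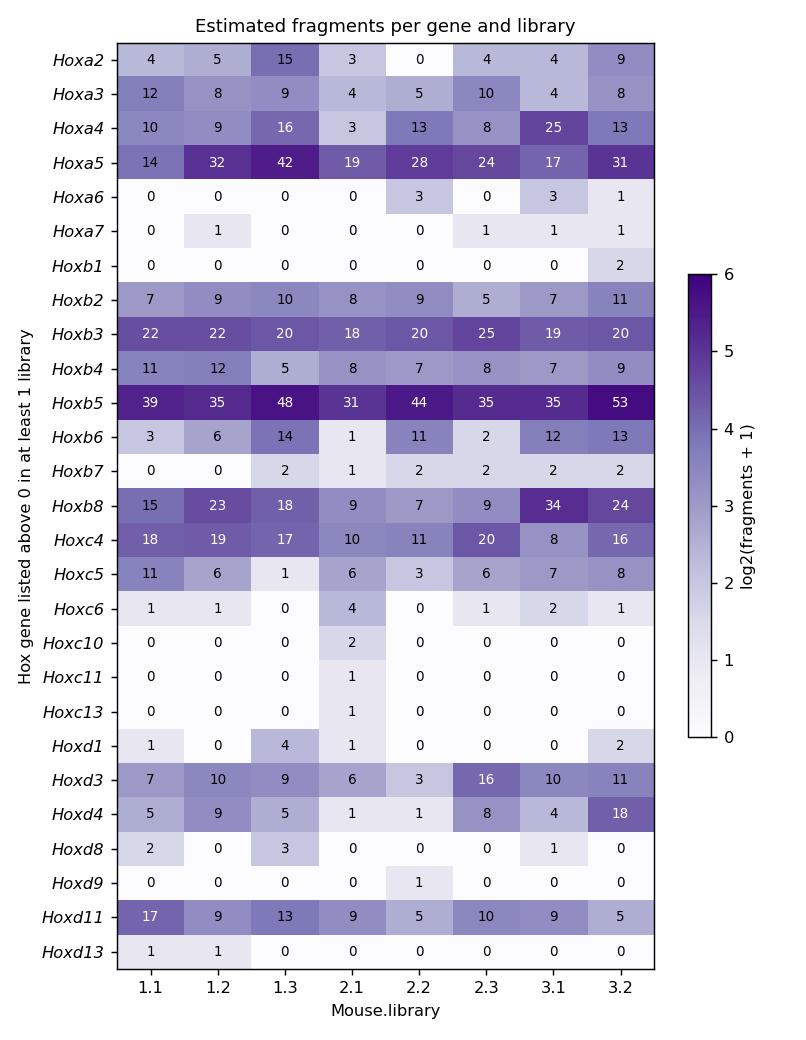
Estimated fragments, rounded to whole numbers, for the Hox genes above 0 in at least 1 library (1 member is not drawn), with darker cells for more fragments on a log2 scale. Hoxb5 had 31 to 53 fragments per library, and library 1 of mouse 2 alone held fragments of Hoxc10, Hoxc11 and Hoxc13.

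The genes that lie between the members, most of them noncoding RNAs, were low as well. Haglr, an antisense RNA of the Hoxd cluster, was above 0 in all 8 libraries at 0.133 ± 0.0430 FPKM, and Hoxaas2 was above 0 in 7 at 0.0915 ± 0.0462 FPKM. Hotairm1, a short RNA in the Hoxa cluster, was listed at 2.16 FPKM in library 3 of mouse 1 and 3.52 FPKM in library 2 of mouse 3 and at 0 in the other 6. Its transcript is only 253 bases long, close to the fragment length of 200 to 260 bases taken off in the estimate of fragments, so that single fragments weigh heavily in its FPKM. Of 18 such genes, 12 were at 0 throughout, namely Hotair, Hoxa11os, Hoxaas3, Hoxd3os1, Gm11538, Gm53 and the microRNA genes Mir10a, Mir10b, Mir196a-1, Mir196a-2, Mir196b and Mir615, in libraries that were made from mRNA and do not capture mature microRNAs. The change in level at the edge of a cluster was sharp on one side of Hoxd, where Mtx2, which codes for a mitochondrial protein, had 27.1 ± 4.02 FPKM, while Evx2, a homeobox gene on the other side, had 0.04997 ± 0.0128 FPKM.

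The 3 mice were compared to ask whether Hox levels differed between individuals of a single condition. The moderated F-test of limma, applied to log2(FPKM + 0.1), was fitted to the 16390 genes that reached 0.1 FPKM on average, with the libraries as replicates, so the p-values measure the spread between these libraries, which may be technical. Of all genes tested, 19.1% had a Benjamini-Hochberg adjusted p under 0.05, and of the 4790 genes with a mean of 0.1 to 2 FPKM, the range of the Hox genes, 2.63% did. Among the members, 16 were tested, 1 of them passed, and 23 were below the minimum. The gene that passed was Hoxb8, with mean levels of 0.515, 0.263 and 0.839 FPKM in mice 1, 2 and 3. Its mouse means spanned 1.37 on the log2 scale (limma, adjusted p = 0.0268). The difference from mouse 1 was -0.76 ± 0.26 for mouse 2 and 0.61 ± 0.29 for mouse 3 (SE, log2 scale).

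**Figure D5:**
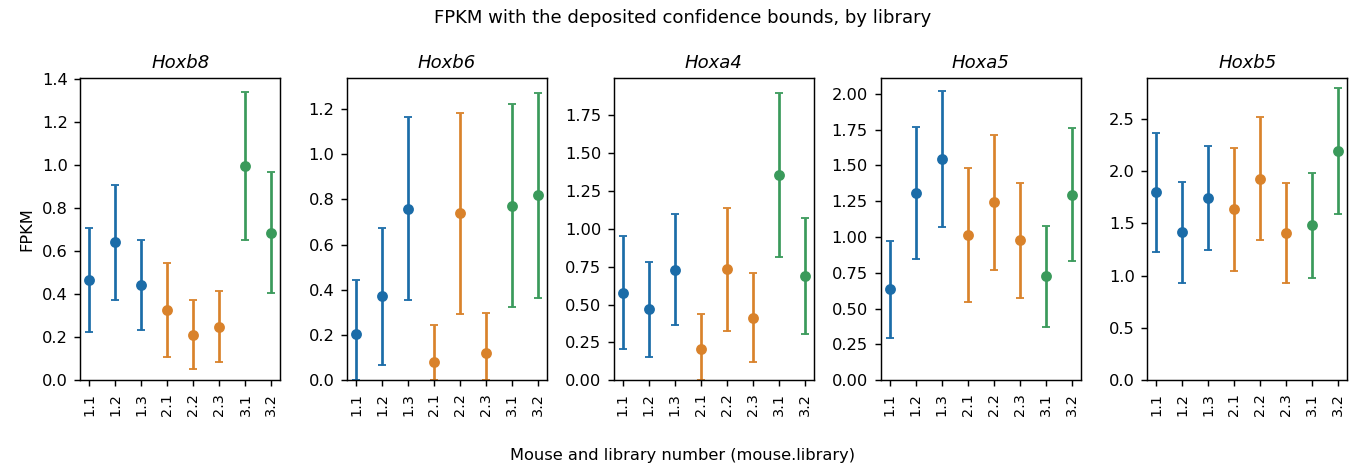
FPKM of Hoxb8, Hoxb6, Hoxa4, Hoxa5 and Hoxb5 in each library, with bars for the confidence bounds that the authors deposited and colours for the mice. The libraries of mouse 2 lie lowest and those of mouse 3 highest for Hoxb8, whereas the mice overlap for Hoxa4, Hoxa5 and Hoxb5.

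The call for Hoxb8 rested on the full set of libraries. The adjusted p was 0.0249 to 0.0607 over 8 other settings of the test, of which 7 kept it under 0.05. When each library was left out in turn it was 0.0247 to 0.0839 and passed in 1 of 8 cases, although the order of the mice was the same in FPKM and in TPM (1.59, 0.829 and 2.13 TPM). In TPM, library 2 of mouse 3 (1.67) lay below library 2 of mouse 1 (1.97), so that mouse 3 no longer stood wholly above mouse 1. The deposited bounds of Hoxb8 did not overlap in 5 of 21 pairs of libraries from different mice and overlapped in all 7 pairs from the same mouse. This was not particular to Hoxb8. The bounds of Hoxb6, which did not pass, were apart in 6 of 21 pairs from different mice and 1 of 7 from the same mouse. Those of Hoxa2, Hoxa4 and Hoxd4 were apart in 3 of 21 each. The share over all genes was not counted. Several markers moved with mouse 3 in the same libraries, among them Mbp at 3166 FPKM against 1288 and 1322 FPKM in mice 1 and 2, Gfap at 111 against 52.8 and 54.4 FPKM, the serotonergic gene Tph2 at 3.22 against 1.23 and 1.16 FPKM, and the cortical factor Tbr1 at 11.3 against 18.3 and 16.7 FPKM. Their part in the Hoxb8 difference was not tested.

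The scaling also set the direction of calls over all genes. Of the called genes, 55.5% were highest in mouse 3 in FPKM and 13.8% in TPM. Over all genes tested, the median of mouse 3 minus mouse 1 was -0.01 in FPKM and -0.29 in TPM (log2 scale). Hoxb8 and all 19 called genes of the lists described below kept their highest or lowest place in mouse 3 in both, but not all kept their call. In TPM, Aqp4 (limma, adjusted p = 0.378), Rbbp4 (0.0678) and Chodl (0.0624) did not pass. With each library's trend with transcript length removed, those that did not pass included Chodl, Gmnn, Kmt2b, Mylpf and Uts2b (limma, adjusted p = 0.0504 to 0.150).

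For the other 15 members tested, the adjusted p was 0.225 to 0.987, which does not show that their levels were equal. Hoxa4 had the lowest of these (limma, adjusted p = 0.225), with mouse means that spanned 1.08 on the log2 scale. Hoxa6 had the widest span, 1.87, and Hoxb6 spanned 1.47. At the other end, Hoxb4 spanned 0.08, Hoxb5 0.13 and Hoxb2 0.14. The median span of the 16 members was 0.48, against 0.47 for all tested genes under 2 FPKM. The libraries of 1 mouse lay wholly above or below all others for 3 members, Hoxa2, Hoxb6 and Hoxb8 (18.8% of 16), of which Hoxb6 did not stand apart in TPM, where both libraries of mouse 3 lay below library 3 of mouse 1. The same was true of 45.9% of all genes tested and of 23.1% of those with 0.1 to 2 FPKM.

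The cofactors that Hox proteins bind to DNA with, the TALE homeodomain proteins, were together far higher than the Hox genes themselves. Meis2 had 28.9 ± 2.47 FPKM, and the 9 genes of the family summed to 120, 116 and 102 FPKM in mice 1, 2 and 3. None of the 9 passed the test between the mice (limma), beside 19.1% of all genes tested, and 2 of them, Meis3 and Pknox2, had an unadjusted p under 0.05. The lowest, Pbx4, had 2.04 ± 0.320 FPKM, above the mean level of every Hox gene, although its lowest library, at 0.951 FPKM, was below all libraries of Hoxb5.

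Retinoic acid induces the low-numbered Hox genes in the embryo. Of the 16 genes for its receptors and metabolism, 14 were tested and 2 passed, beside 19.1% of all genes tested. Both had the highest level in mouse 3. Among these, Aldh1a1, which makes retinoic acid, had 87.7 FPKM in mouse 3 against 38.8 and 38.5 FPKM in mice 1 and 2 (limma, adjusted p = 0.00423). The receptor gene Rxrb had 14.03 ± 1.25 FPKM. Of the 9 regulators that act on the clusters in the embryo, Cdx2 and Cdx4, which drive posterior Hox genes, were listed at 0 in all libraries. Gdf11, a signal that sets posterior Hox limits, had 5.38 ± 0.614 FPKM, and Gmnn had 7.40 FPKM in mouse 3 against 3.92 and 3.19 FPKM and was the 1 of 6 tested that passed.

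The chromatin regulators that keep Hox genes off or on were expressed throughout. All 18 Polycomb genes, whose complexes silence Hox clusters, were tested and 3 passed, beside 19.1% of all genes tested. Among the 3 were Rbbp4, which was highest in mouse 3 and did not pass in TPM, and Pcgf2, which was lowest in mouse 3. Cbx6 led the list at 63.4 ± 2.69 FPKM, followed by Rbbp4 at 30.0 ± 6.94 FPKM, whereas the methyltransferase gene Ezh2 had 2.10 FPKM against 12.3 FPKM for its relative Ezh1. Of the 8 trithorax genes, which hold Hox genes active, Kmt2b passed and was lowest in mouse 3 at 3.65 against 5.47 and 5.50 FPKM, while Men1 had 14.4 ± 2.05 FPKM.

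Markers of the regions and tissues from which Hox RNA could come were read as lists. Their calls stand beside the 19.1% of all genes tested that passed. The 12 brainstem markers summed to 15.2, 15.5 and 16.6 FPKM in mice 1, 2 and 3 (14.6 to 17.9 FPKM in single libraries), and of 11 tested only Tph2 passed. Glra1, a glycine receptor gene, led them at 5.25 ± 0.672 FPKM, and Slc6a5, a glycine transporter gene, had 3.59 ± 0.302 FPKM. The 7 motor neuron and spinal markers summed to 6.14, 5.74 and 5.95 FPKM, with Chodl and Uts2b among 5 tested passing, and Mnx1, which defines spinal motor neurons, was at 0 in all libraries. Uts2b had 0.369, 0.168 and 0.627 FPKM in mice 1, 2 and 3 and Chodl 1.05, 0.673 and 1.40 FPKM, each lowest in mouse 2 and highest in mouse 3. Neither call held under all scalings, as given above. Other markers of the list differed in order, with Chat (1.16, 1.11 and 0.852 FPKM), Slc5a7 (2.46, 2.46 and 1.86 FPKM) and Tbx20 (0.0802, 0.0471 and 0.0168 FPKM) lowest in mouse 3 and Isl1 (1.03, 1.29 and 1.20 FPKM) highest in mouse 2. None of these passed, and Tbx20 was below the minimum and not tested. The 6 markers of sensory ganglia summed to 0.757, 0.760 and 0.745 FPKM, of which none of 3 tested passed (limma, 0 with an unadjusted p under 0.05) and Mrgprd was at 0 throughout. The part of brainstem or spinal tissue in the Hox levels was not tested.

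Of the remaining lists, none of 6 genes of meningeal fibroblasts (27.3 to 30.0 FPKM in sum over the mice) and none of 5 of smooth muscle (19.3 to 24.1 FPKM) passed (limma), with 1 gene in each at an unadjusted p under 0.05. The share over all genes tested was 19.1%. Of the skeletal muscle genes 1 of 3 tested passed, Mylpf, at 1.51 FPKM in mouse 3 against 0.426 and 0.489 FPKM. Of the 5 blood genes 1 passed, Hbb-bt, at 219 FPKM in mouse 3 against 101 and 98.4 FPKM. Of the 9 forebrain and midbrain factors, 2 passed, among them Tbr1, and were lowest in mouse 3, and of the 9 markers of brain cells, Mbp, Gfap and Aqp4 passed and were highest in mouse 3 (Aqp4 not in TPM), with Rbfox3 and Gad1 lowest.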

How the data were processed

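RNA was extracted from 3 whole brains (RNAqueous Micro kit), checked for integrity, made into Kapa mRNA HyperPrep libraries and sequenced on a NextSeq500. The authors deposited FPKM values with confidence bounds for 34535 RefSeq transcripts per library. The deposited coverage is a signal per base that is not scaled to library size. The submitters' processing notes name TopHat, Cufflinks and mm10, without versions. Strand setting and read length are not given in the sources used here.

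FPKM was summed per gene. Fragments were estimated from the steps between low values (tolerance 0.1 of a whole number), after taking off an effective fragment length, and carry counting error only. Coordinates are those of the deposited table, 1-based. Mice were compared with limma 3.58.1 in R 4.3.3 on log2(FPKM + 0.1), a moderated F-test with a variance trend, among genes averaging 0.1 FPKM or more. P-values were adjusted by Benjamini-Hochberg and called under 0.05. The fit was run on simulated data with independent normal noise of the fitted variances. That run cannot tell how the fit behaves at low fragment counts or with shifts of whole libraries. A fold change on this scale understates that of low genes. Other steps used Python 3.11.15, pandas 2.3.3 and Biopython 1.88.

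The rule for named genes took all Hox genes, the other genes between the first and last member of a cluster with the nearest neighbour on each side, and members of 14 lists of Hox cofactors, regulators and tissue markers, with values for the highest 2 and those that passed. Ezh1, Ezh2, Pbx4, Mnx1, Snap25, Acta1 and other listed genes given beyond that were chosen after their values were seen. The members and lists were chosen with earlier results of these data known. Of the genes this rule takes, 1 Hox gene and some list members are not reported here by name, though they stay in the sums and counts. The homeobox was to be read from protein sequences, which were not used here. It was located instead by the recognition helix in the translated reading frame of each GENCODE coding sequence. RefSeq promoters on GRCm38.p6 matched 22 of 39 members (56.4%), so a check of promoter features over the members was void.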

Additional observations from a re-analysis of the deposited data

Results flagged for a closer look

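Over the 8 libraries, 33 measures with values above 0 (28 Hox genes, their sum and the 4 cluster sums) were searched for a library that stood apart from the others by a gap above Dixon's critical value for 8 values, which chance gives in about 1 of 20 groups. It was found for 9 genes, always as a high value. For 5 of these, only 1 library was above 0, so that the gap is the value of 1 or 2 fragments. Such a gene is flagged in any case, and the rate of 1 in 20 does not apply to it. These were Hoxb1 at 0.0746 FPKM in library 2 of mouse 3, Hoxc10 at 0.105, Hoxc11 at 0.131 and Hoxc13 at 0.0398 FPKM in library 1 of mouse 2, and Hoxd9 at 0.0390 FPKM in library 2 of mouse 2. The other 4 were among the 22 measures above 0 in at least 6 libraries. Hoxa4 had 1.36 FPKM in library 1 of mouse 3 against 0.733 FPKM in the next library. Hoxd4 had 0.533 FPKM in library 2 of mouse 3 against 0.260 FPKM. Hoxd11 had 0.406 FPKM in library 1 of mouse 1 against 0.245 FPKM. Hoxc6 had 0.259 FPKM in library 1 of mouse 2 against 0.103 FPKM. Library 1 of mouse 2 was the high one for 4 of the 9 genes, all of them in the Hoxc cluster. Among them Hoxc10, Hoxc11 and Hoxc13 were above 0 in that library alone, so the count of 4 is no separate result.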

How the results depend on the processing

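Of 89 alternatives for counts and summed levels, 65 stayed within 1.5 times the count or within 1 SD over mice. Of 258 for single Hox genes, 249 left the call of the gene as it was. Direction was compared only where the gene was called in the main fit or in the alternative. In TPM, 5537 genes in all and 51 of 111 list genes passed between the mice, 8 Hox genes had a mean of at least 1, and the Hox sum was 23.2 TPM. Without the variance trend 1526 genes passed. With a minimum mean of 1 FPKM 0 Hox genes passed limma's test (0 at an unadjusted p under 0.05), since only 2 were then tested and Hoxb8 was not among them. A lower level minimum, 0.5 or 0.1 FPKM, gave 6 and 16 Hox genes in place of 2. With each library left out in turn, 233 to 3819 genes, 0 to 1 Hox genes and 3 to 25 list genes passed. The counts were lowest without library 2 of mouse 3, which leaves that mouse with 1 library assumed to vary like the others. Then 1 rather than 2 Hox genes had at least 1 FPKM (1 to 2 over the 8 omissions), the Hox sum was 7.83 to 8.30 FPKM and the share of paralog numbers 1 to 5 was 77.3% to 81.3%. Hoxb8 was the gene that lost its call, in 7 of these omissions and under the block below, and Hoxb6 passed without library 2 of mouse 2 (limma, adjusted p = 0.0489, 0.0489 to 0.574 over the omissions). The cause was not tested. The number of Hox genes at 0 was 11 to 14, an alternative chosen after seeing the data.

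Deviations of libraries with the same number from their mouse means correlated at -0.0171 to 0.0826 over 7 pairs, against -0.100 to 0.0354 for other numbers, and 4 of 8 libraries correlated best with their own number, so the numbers were treated as names. With library number as a replicate block, 3061 genes, 15 list genes and 0 Hox genes passed (limma, 1 at an unadjusted p under 0.05, Hoxb8, with adjusted p = 0.0607), and it changed no call of another Hox gene. Depth limits the values of low members, which rest on few fragments.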
